A study of Mus musculus with 6 samples.

Results

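The 10 genes described here belong to the antioxidant response that the transcription factor NRF2 controls: Nfe2l2 (the gene of NRF2), Keap1, Gclc, Gclm, Slc7a11, Gsr, Txnrd1, Srxn1, Hmox1 and Pgd. They were taken by gene symbol from the deposited expression table of mouse lymph nodes, and all 10 were found among its 50559 genes. The study compared inguinal lymph nodes of mice labelled Control with those of mice that ate naringin, a glycoside of the citrus flavanone naringenin, at 200 mg/kg each day in their food. Each group has 3 RNA-seq libraries, and the question is which genes of the node differ with naringin. No strain, age or sex of the mice is stated in the labels, nor how long the feeding lasted or what diet the Control group had. The labels do not tie the libraries of a group to separate animals, so p-values measure only the spread between these libraries, which may be technical.

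NRF2 is a basic leucine zipper factor that is made all the time and held in check by KEAP1, an adaptor of the CUL3 ubiquitin ligase that marks it for destruction. Electrophiles and oxidants modify cysteines of KEAP1, NRF2 then accumulates, pairs with small MAF proteins and binds antioxidant response elements near its target genes. The targets make glutathione, keep thioredoxin and glutathione reduced, supply NADPH and break down haem; BACH1 competes for the same elements and is itself released by haem. The haem-degrading targets are best known from macrophages that take up red cells.

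The elements are the sequence feature that this group of genes is named for, so the matches found near their start sites are shown before the expression values. The core TGACNNNGC was searched on both strands of windows reaching from 250 bases before to 50 bases after each RefSeq start site, on the build GRCm38.p6. The table held windows for 7 of the 10 genes, and 5 of those 7 had a match in at least 1 window, against 14.0% of all 27025 genes with a window. By window, 5 of 10 matched, against 12.4% of 32851. The genes were listed as NRF2 response genes, so these shares are a description with no test. A match of letters does not show that NRF2 binds there. Each match is printed on the strand where it reads TGACNNNGC, with 10 bases on either side in lower case and the core in capitals.
Nfe2l2, chr2:75704885-75704913, minus strand: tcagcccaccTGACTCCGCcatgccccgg
Gclm, chr3:122245413-122245441, minus strand: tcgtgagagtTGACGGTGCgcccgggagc
Txnrd1, chr10:82859104-82859132, minus strand: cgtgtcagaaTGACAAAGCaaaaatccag
Srxn1, chr2:152105542-152105570, minus strand: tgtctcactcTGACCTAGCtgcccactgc
Pgd, chr4:149166061-149166089, minus strand: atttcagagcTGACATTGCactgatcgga
The core lay before the start site in Nfe2l2, Gclm and Txnrd1, with 231, 125 and 83 bases between them, and it began at base 29 of the Srxn1 transcript and base 4 of a Pgd transcript. In the GENCODE M21 annotation of the same build, the Srxn1 core lies in an untranslated part of its own exon and the Pgd core in coding sequence of Pgd. The Txnrd1 core lies in an intron of that gene, the Gclm core outside annotated genes and the Nfe2l2 core in an exon of the neighbouring E030042O20Rik. None of the 5 printed stretches held TGACTCA, the AP-1 site that an element of this kind can contain. Txnrd1 has 3 windows and Pgd has 2, of which 1 matched in each. The windows of Keap1 and Slc7a11 held no match, which says only that these letters are absent from these windows. The coordinates belong to the sequence table's build; the submitters' processing notes name mm39 for the expression data.

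Expression is given in CPM, a gene's reads divided by the reads of its library and multiplied by 1000000. The libraries held 13074180 to 14976422 reads. Markers of T cells summed to 1995 to 2186 CPM in Control and 1637 to 2101 CPM with naringin. Of 8 tested, 0 had a log2 fold above 0 (median -0.21), against 56.7% of all genes tested, and 0 were called. In 2 of 8 all naringin values lay below the controls, against 2.29% of all genes. An unadjusted limma p under 0.05 was found for 1 of 8, against 1.43%. Markers of B cells summed to 3745 to 4156 CPM and 3706 to 4559 CPM, with 7 of 8 above 0 (median 0.14) and 0 called. Adipocyte markers summed to 151 to 210 CPM and 126 to 168 CPM, with 1 of 8 above 0 (median -0.38) and 0 called. Markers of skin (Krt14, up to 4 reads) and muscle (Acta1, up to 6 reads) were nearly absent. Trac, the T cell receptor alpha constant gene, is listed at 0 in every library beside these T cell sums. The reason was not tested, so the 0 is not read as absent expression. Control 3 stood apart by gene length. Among tested genes with the shortest exon length (up to 2554 bases) its median log2 deviation from the other 5 libraries was 0.21, and among the longest (6619 bases or more) it was -0.36. The other libraries lay between -0.08 and 0.01 and between 0.01 and 0.19.

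All 10 genes were expressed in every library. Levels can be compared between genes only per length, so the mean CPM over 6 libraries was divided by the gene's total exon length in kilobases, taken from GENCODE M21. Hmox1, haem oxygenase 1, stood far above the others at 115 CPM per kilobase, and its lowest library (43.5) lay above the highest library of the next gene, Gsr (32.4). Gsr, Keap1, Nfe2l2, Gclc and Pgd followed at 22.2, 19.9, 19.9, 17.0 and 16.0 CPM per kilobase, and neighbours among these 5 overlapped in range. Txnrd1, at 10.8 CPM per kilobase, lay below Pgd in 6 of 6 libraries without overlap, and Srxn1, at 3.47, lay below Txnrd1 in the same way. Slc7a11 and Gclm came last at 2.35 and 2.24 CPM per kilobase and could not be ordered, since either was the higher in 3 libraries. The exon total counts every annotated exon, which lowers the per-length level of genes with long alternative ends such as Slc7a11 (13922 bases).

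**Figure D1:**
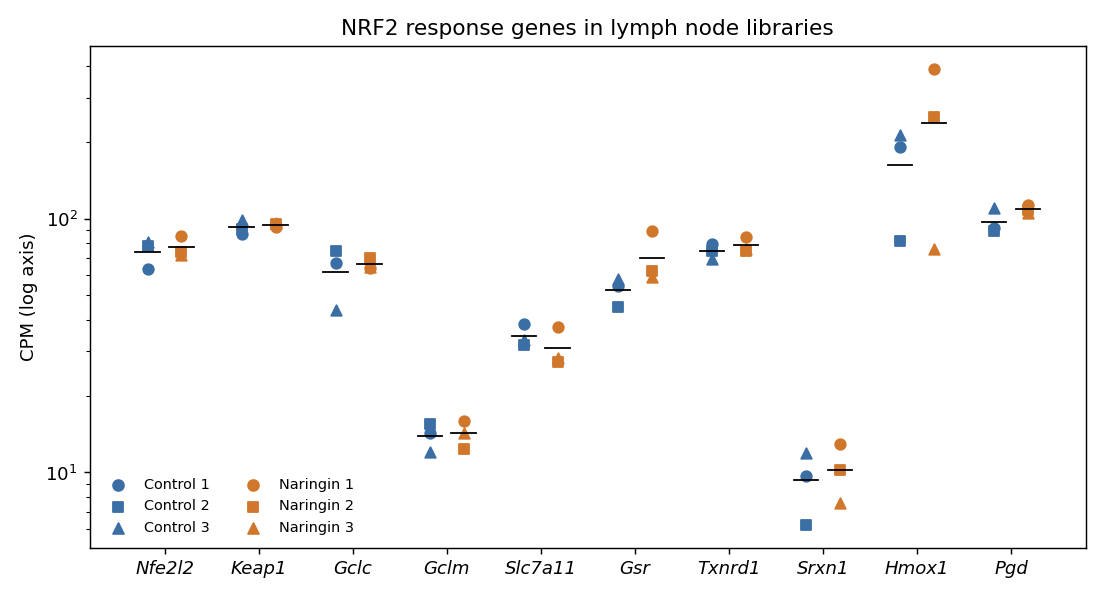
CPM of the 10 genes (log axis, not corrected for length) in each of the 6 libraries, Control in blue and Naringin in orange, with a line at each group mean. The groups overlap in every gene but Gsr, and Hmox1 spans the widest range, from 76.1 to 390.0 CPM.

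None of the 10 genes passed the test between the groups. On log2(CPM + 1) values fitted with limma over 14873 genes, 0 of 10 had an adjusted p under 0.05, against 0.0% of all genes tested, and the limma adjusted p of each was 0.9996. An unadjusted p under 0.05 was likewise found for 0 of 10, against 1.43% of all genes (0.975% higher and 0.457% lower with naringin). The count tests edgeR and DESeq2 on the reads recovered from the CPM called 0 of 10 as well, with 0 at an unadjusted p under 0.05 in either; over all genes edgeR called 0.0% and DESeq2 0.0202%, with 1.56% and 1.53% at an unadjusted p under 0.05. The log2 fold of naringin against Control was above 0 in 9 of 10 genes, against 56.7% of all genes tested, and its median was 0.10, against 0.02. That lean rested mainly on Naringin 1: without it 5 of 10 folds were above 0 and the median was 0.0021. Leaving out Control 1, Control 2 or Control 3 gave 7 of 10 each, with medians of 0.13, 0.09 and 0.11. With upper-quartile scaling or quantile normalization 7 of 10 were above 0.

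The size that these libraries allow is given by the 95% interval of each fold, which measures only the spread between them. For the 9 genes other than Hmox1 the intervals lay between -0.52 and 0.82 on the log2 scale. The narrowest was that of Keap1, from -0.23 to 0.30, and the widest was that of Hmox1, from -0.96 to 1.72. A doubling of Keap1, Nfe2l2, Gclc, Gclm, Txnrd1, Srxn1, Slc7a11, Gsr or Pgd therefore lay outside its interval, while for Hmox1 it did not. The scale, log2(CPM + 1), understates folds of low genes such as Srxn1.

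**Figure D2:**
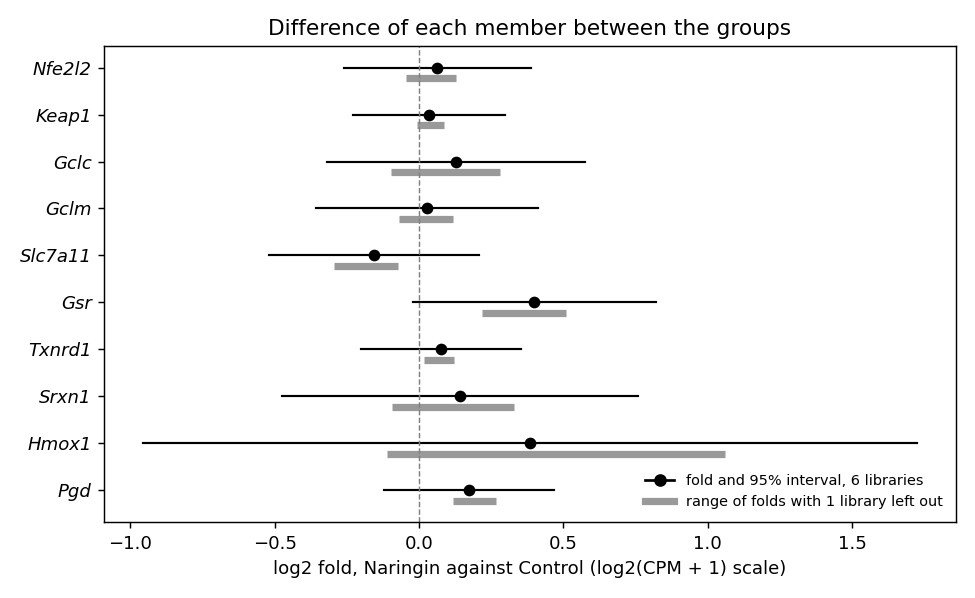
Log2 fold of each gene, Naringin against Control, with limma's 95% interval over 6 libraries (black) and the range of folds when 1 library is left out (grey). All 10 intervals contain 0, and that of Hmox1 is the widest, from -0.96 to 1.72.

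The factor and its sensor differed little between the groups. Nfe2l2 stood at 63.5, 78.0 and 80.7 CPM in Control 1, 2 and 3 and at 85.7, 73.8 and 72.1 CPM in Naringin 1, 2 and 3. Its lowest library was Control 1 and its highest Naringin 1, and the groups overlapped. The log2 fold was 0.06 ± 0.14 (SE, n = 3 each; limma adjusted p = 0.9996), with an interval from -0.26 to 0.39, and it was below 0 without Control 1 (-0.044) or Naringin 1 (-0.014). Keap1, which varied least of the 10 genes (SD 4.51% of its mean over 6 libraries), stood at 87.2, 91.1 and 99.2 CPM in Control and 92.5, 95.0 and 96.3 CPM with naringin, so that all naringin libraries lay inside the control range. Its log2 fold was 0.03 ± 0.11 (SE). The ratio of Nfe2l2 to Keap1 per kilobase stayed between 0.900 and 1.14 over the 6 libraries. In GENCODE M21, 510 of the 4693 exon bases of Keap1 are shared with the antisense gene Gm16754. Whether the counting used strand is not stated, so reads from the shared bases cannot be told apart.

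Glutathione is made in 2 steps, and glutamate-cysteine ligase, the first and limiting one, has a catalytic subunit (Gclc) and a modifier subunit (Gclm). Gclc stood at 66.8, 74.8 and 43.8 CPM in Control and at 63.8, 69.8 and 64.7 CPM with naringin. Control 3 was the low library, and the 3 naringin values lay inside the control range. The log2 fold of Gclc was 0.13 ± 0.20 (SE) with all libraries and -0.10 without Control 3. Gclm stood at 14.3, 15.5 and 12.0 CPM in Control and 16.0, 12.4 and 14.4 CPM with naringin, with the lowest value again in Control 3. Its log2 fold was 0.03 ± 0.17 (SE). Per kilobase the mRNA of the catalytic subunit stood at 6.09 to 9.44 times that of the modifier. The means were 7.31 ± 1.07 in Control and 7.87 ± 1.43 with naringin (SD, n = 3 each), which overlapped. This ratio depends on the exon lengths used, 3766 bases for Gclc and 6291 for Gclm, and protein was not measured. Of the 6291 exon bases of Gclm, 296 are shared with Gm17494 on the opposite strand and 244 with the pseudogene Gm6061, so its reads carry that uncertainty.

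Slc7a11, the cystine-glutamate exchanger xCT that brings in the cysteine for glutathione, was the one gene with a mean below Control. It stood at 38.3, 31.7 and 33.2 CPM in Control and 37.5, 27.3 and 28.3 CPM with naringin. Naringin 2 and 3 were below all controls, but Naringin 1 was above 2 of them. The log2 fold was -0.16 ± 0.16 (SE), with an interval from -0.52 to 0.21. It was -0.29 without Naringin 1 and -0.07 without Naringin 2.

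Gsr, glutathione reductase, returns oxidised glutathione to its reduced form at the cost of NADPH, and it had the smallest p of the 10. It stood at 54.3, 44.7 and 58.0 CPM in Control and at 89.1, 62.2 and 59.1 CPM with naringin. Every naringin library lay above every control library, though Naringin 3 exceeded Control 3 by little, with 844 reads against 868 from the deeper Control 3 library. This was 1 of 10 genes with all naringin values above the controls, against 3.36% of all genes tested, and 0 of 10 had them all below, against 2.29% (5.65% in either direction). The log2 fold was 0.40 ± 0.18 (SE, n = 3 each; limma unadjusted p = 0.0607, adjusted p = 0.9996), with an interval from -0.02 to 0.82. Without Naringin 1 the fold was 0.22. The ratio of Gsr to Slc7a11 per kilobase was 7.13 to 8.83 in Control and 10.6 to 12.0 with naringin; this pair was picked after its values were seen, so the separation is a description with no test.

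Txnrd1 and Srxn1 serve the thioredoxin branch. Txnrd1, the cytosolic selenoenzyme that reduces thioredoxin, stood at 79.2, 74.3 and 69.6 CPM in Control and at 84.9, 74.5 and 76.0 CPM with naringin. The groups overlapped, and the log2 fold was 0.08 ± 0.12 (SE), or 0.02 without Naringin 1. Srxn1, sulfiredoxin, which repairs overoxidised peroxiredoxins, was the lowest gene in CPM, with 86 to 194 reads in a library. It stood at 9.71, 6.22 and 12.0 CPM in Control and 13.0, 10.2 and 7.56 CPM with naringin, so both groups covered much the same range. Its log2 fold was 0.14 ± 0.27 (SE), and it was -0.09 without Control 2 and 0.33 without Control 3.

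Pgd, 6-phosphogluconate dehydrogenase, makes NADPH in the oxidative pentose phosphate pathway. It stood at 91.6, 89.3 and 110.3 CPM in Control and at 113, 109 and 105 CPM with naringin. Naringin libraries lay above Control 1 and 2, while Control 3 lay among them. The log2 fold was 0.17 ± 0.13 (SE), with an interval from -0.12 to 0.47, and 0.27 without Control 3.

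Hmox1, which opens the haem ring to biliverdin, carbon monoxide and iron, varied more between libraries than any other of the 10 genes. It stood at 192, 81.9 and 214 CPM in Control and at 390.0, 252 and 76.1 CPM with naringin. Naringin 1 was highest and Naringin 3 lowest of all 6, a range of 5.12-fold within 1 group, against 1.14-fold (Keap1) to 2.09-fold (Srxn1) over all 6 libraries in the other genes. The Control mean was 162 ± 70.6 CPM and the naringin mean 239 ± 157 CPM (SD, n = 3 each), and the log2 fold was 0.38 ± 0.58 (SE; limma adjusted p = 0.9996). Its direction turned when single libraries were left out, to -0.11 without Naringin 1 and to -0.047 without Control 2, and without Naringin 3 the fold was 1.06.

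Macrophage markers shared their highest and lowest library with Hmox1, but not the order of the others. The 16 markers summed to 1920, 2203 and 3900 CPM in Control 1, 2 and 3 and to 4428, 2904 and 1471 CPM in Naringin 1, 2 and 3. Naringin 1 was highest and Naringin 3 lowest in both. Control 1 had more Hmox1 than Control 2 (192 against 81.9 CPM) with a lower marker sum. Control 3 had less Hmox1 than Naringin 2 (214 against 252 CPM) with a higher sum. Of the 14 markers tested, 10 were highest in Naringin 1 and the other 4 in Control 3, and 13 were lowest in Naringin 3. Over all genes tested these shares were 19.4%, 24.0% and 14.0%. Between the groups 7 of the 14 had a fold above 0 and 7 below, with a median of -0.01. The markers that missed the filter were Vsig4 and Cd163: Vsig4 had 0 reads in 5 libraries and 1 in Naringin 3, and Cd163 reached 1.34 CPM. Slc40a1, the iron exporter ferroportin, followed the same order at its ends, with 44.6, 20.2 and 98.6 CPM in Control and 124, 73.6 and 10.6 CPM with naringin. Per 100 CPM of macrophage markers, Hmox1 stood at 9.97, 3.72 and 5.48 CPM in Control and 8.81, 8.66 and 5.18 CPM with naringin, which still overlapped. Markers of red cells and platelets summed to 34.8 to 56.1 CPM in Control and 58.6 to 64.3 CPM with naringin. Of the 6 tested, 5 had a fold above 0 (median 0.48) and 3 an unadjusted p under 0.05 (limma, against 1.43% of all genes), namely the globins Hba-a1, Hba-a2 and Hbb-bs, and 0 passed the adjusted threshold. In a whole node, fewer cells of a type and less RNA per cell cannot be told apart, and the part of macrophage or red cell content in the Hmox1 values was not tested.

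**Figure D3:**
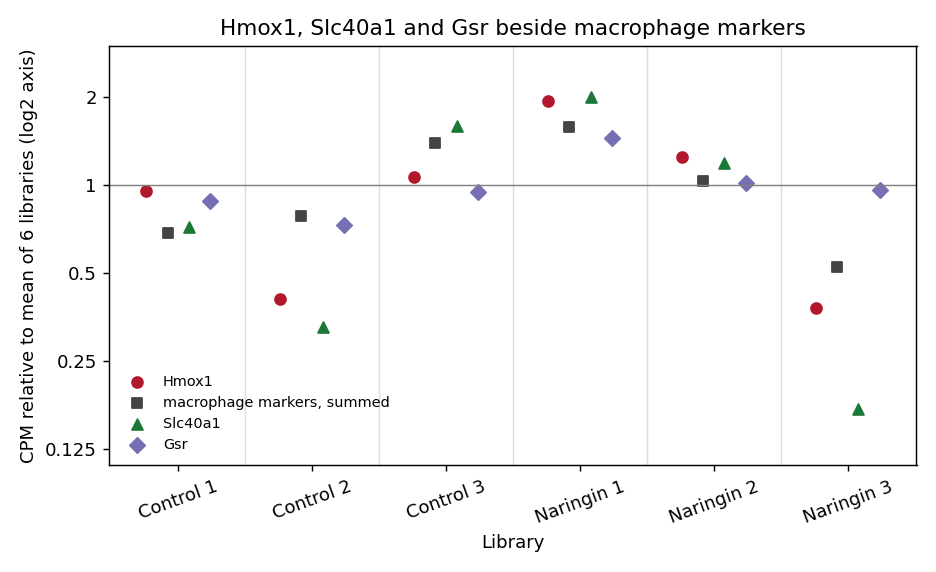
Hmox1, Slc40a1, Gsr and the sum of 16 macrophage markers in each library, as CPM divided by the mean of the 6 libraries (log2 axis). Hmox1, Slc40a1 and the marker sum are all highest in Naringin 1 and lowest in Naringin 3, while Gsr in Naringin 3 (59.1 CPM) lies above all 3 controls.

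Naringin 1 was the highest library for 7 of the 10 genes, namely Nfe2l2, Gclm, Gsr, Txnrd1, Srxn1, Hmox1 and Pgd, and the lowest for 0. Over all genes tested it was the highest for 19.4% and the lowest for 13.0%. Of the other pathway lists, NADPH-supplying genes (7 of 11 highest there) and quinone and xenobiotic genes (8 of 17) leaned to it too. Glutathione-using genes (3 of 22) and thioredoxin and peroxiredoxin genes (2 of 16) did not. It was highest for 4 of 12 partners and regulators, 3 of 10 haem and iron genes and 2 of 5 superoxide and peroxide enzymes. It was also highest for 10 of 14 macrophage markers and 9 of 14 endothelial and stromal markers, but for 3 of 10 dendritic cell and 0 of 8 T cell markers. Gclc was highest in Control 2, Keap1 in Control 3 and Slc7a11 in Control 1. The median log2 deviation of the 10 genes from their own means was 0.18 in Naringin 1 and between -0.04 and 0.06 in the other 5 libraries. With Hmox1 left out, their CPM summed to 596 in Naringin 1 and to 505 to 534 in the others. Control 2 and Control 3 were each lowest for 3 genes, against 12.1% and 36.6% of all genes tested. Markers of monocytes and neutrophils summed to 353, 277 and 655 CPM in Control and 609, 481 and 302 CPM with naringin. Naringin 1 was thus also high in macrophage, monocyte and neutrophil markers, as was Control 3. Dendritic cell markers were not high in Naringin 1, at 1002 CPM, against 958 to 1294 CPM in Control. Endothelial and stromal markers were, at 2803 CPM, against 1761 to 2735 CPM in Control. Between the groups, 8 of 10 dendritic cell folds lay below 0, and 10 of 14 endothelial and stromal folds lay above 0, against 56.7% of all genes above 0. An unadjusted limma p under 0.05 was found for 1 of 10 and 2 of 14, against 1.43% of all genes, and 0 were called. All naringin values lay below the controls in 1 of 10 dendritic cell markers, against 2.29%. They lay above them in 2 of 14 endothelial and stromal markers, against 3.36%. The part of any of these cells in the Naringin 1 pattern was not tested.

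**Figure D4:**
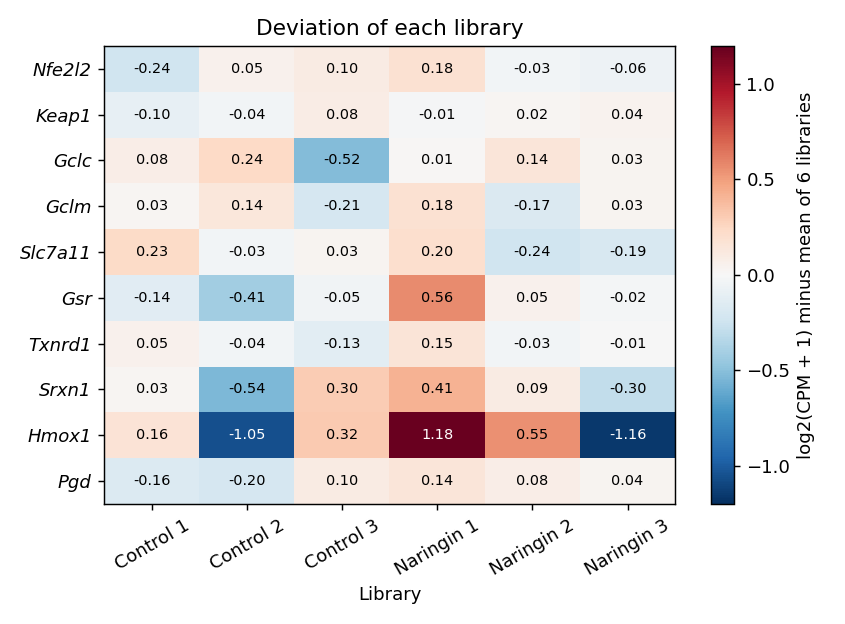
Log2(CPM + 1) of each gene in each library minus that gene's mean over the 6 libraries. Naringin 1 is the highest library for 7 of the 10 genes, and the largest deviations are those of Hmox1.

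Other genes of the pathway were described from lists of its partners, targets and helper enzymes. They held 99 genes, of which 93 reached a mean of 1 CPM and were tested. Among the 6 that did not, the intestinal glutathione peroxidase Gpx2 and the transferase Gsta1 are listed at 0 in every library. Of the 93, 0 passed the adjusted threshold and 0 had an unadjusted p under 0.05, with limma, edgeR and DESeq2 alike, against 1.43%, 1.56% and 1.53% of all genes at that unadjusted p. The log2 fold was above 0 in 55 of 93 and below 0 in 38, against 56.7% of all genes above 0, with a median of 0.02, the same to 2 decimals as that of all genes tested. All naringin values lay above the controls in 1 of 93 and below them in 2, against 3.36% and 2.29% of all genes tested.

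Among partners and regulators, 8 of 12 had a fold above 0, with a median of 0.07. Bach1, the repressor of Hmox1, stood at 57.7, 58.1 and 29.8 CPM in Control and 68.8, 60.2 and 49.8 CPM with naringin. Control 3 was again the low library, and the log2 fold of 0.34 ± 0.26 (SE) was 0.03 without it. Bach2, its relative that acts in B and T cells, stood at 150, 137 and 66.2 CPM in Control and 87.2, 110 and 128 CPM with naringin; its fold of -0.05 was -0.42 without Control 3 and 0.17 without Control 1. The small MAF gene Mafk was the 1 gene of the 93 with all naringin values above the controls (log2 fold 0.19), and Rbx1, the RING subunit of the KEAP1 ligase, had the smallest p below 0 (log2 fold -0.07).

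Nqo1, the quinone reductase widely used as a readout of NRF2, was close to the filter. It stood at 2.07, 2.02 and 5.75 CPM in Control and at 5.63, 3.34 and 1.33 CPM with naringin. Its high libraries were Control 3 and Naringin 1, and its log2 fold was 0.03 ± 0.44 (SE), from -0.32 without Naringin 1 to 0.43 without Naringin 3. Of 17 quinone and xenobiotic genes tested, 9 had a fold above 0 and 8 below, with a median of 0.02. The aldehyde dehydrogenase Aldh3a2 and the aldo-keto reductase Akr7a5 had the smallest p in either direction, with log2 folds of 0.16 and -0.13.

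Glutathione-using genes had 7 of 22 folds above 0 and a median of -0.04, and the smallest p above and below 0 belonged to the transpeptidase Ggt1 (log2 fold 0.12) and the transferase Gstm4 (-0.29). The Gstm genes are close paralogs and may share reads, so the value of Gstm4 is uncertain. In the thioredoxin and peroxiredoxin list 13 of 16 folds were above 0, with a median of 0.07. Prdx1, a peroxiredoxin and NRF2 target, stood at 221, 198 and 327 CPM in Control and 263, 260 and 221 CPM with naringin (log2 fold 0.02 with all libraries, 0.23 without Control 3, and below 0 with upper-quartile scaling, edgeR and DESeq2). Txn1, thioredoxin itself, stood at 137, 122 and 180.0 CPM and at 170, 159 and 159 CPM (log2 fold 0.17 ± 0.16). Sesn1 and the mitochondrial Txnrd2 had the smallest p in the 2 directions, with log2 folds of 0.19 and -0.17. Txnrd2 and Gstm4 were the 2 genes with all naringin values below the controls.

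NADPH-supplying genes had 10 of 11 folds above 0, with a median of 0.07 and none past 0.16. G6pdx, the entry enzyme of the pathway in which Pgd acts, stood at 54.4, 54.6 and 65.0 CPM in Control and 72.5, 59.8 and 46.5 CPM with naringin, with a log2 fold of 0.02 ± 0.18 (SE). Me1, malic enzyme, stood at 3.06, 2.60 and 2.07 CPM in Control and 4.42, 2.80 and 1.89 CPM with naringin (log2 fold 0.14 ± 0.26). In this list Me2 and Pgls had the smallest p in either direction, with log2 folds of 0.16 and -0.11. For haem and iron, 6 of 10 folds were above 0 with a median of 0.03. The ferritin chains Fth1 and Ftl1 had log2 folds of -0.02 ± 0.18 and -0.16 ± 0.26 (SE), with Ftl1 at 2177, 1755 and 3471 CPM in Control and 2515, 2136 and 1761 CPM with naringin. Ftl1 was highest in Control 3, and its fold without that library was 0.11. Fech, which inserts iron into protoporphyrin to make haem, had the smallest p among the folds above 0 in that list (log2 fold 0.10). The superoxide and peroxide enzymes had 2 of 5 folds above 0, and the smallest p in either direction belonged to Sod2 (log2 fold 0.14) and Sod1 (log2 fold -0.16). Control 3 was the highest library for 46 of the 93 genes and the lowest for 13, against 24.0% and 36.6% of all genes tested.

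**Figure D5:**
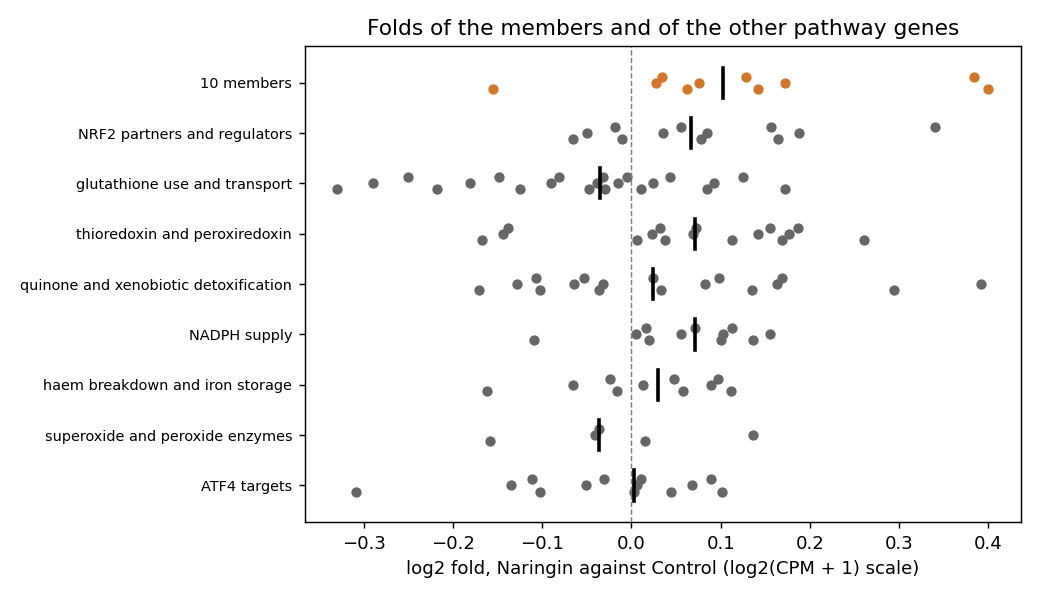
Log2 folds, Naringin against Control, of the 10 genes (orange) and of the tested genes of each other list (grey), with a bar at each median. All medians lie between -0.04 and 0.10, and no single gene passed the adjusted threshold.

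The genes whose library pattern was most like that of the 2 members with the smallest p were found by Pearson correlation of log2(CPM + 1) over the 6 libraries, among 9750 genes that averaged 10 CPM or more. For Gsr they were Tpm1 (r = 0.987), Racgap1 (r = 0.986) and Angptl4 (r = 0.985), each highest in Naringin 1 and lowest in Control 2, as Gsr is. For Pgd they were Spsb2 (r = 0.992), Cebpd (r = 0.984) and Tpx2 (r = 0.984). These values describe a choice of the highest among 9750 genes over 6 libraries that share depth and tissue, and carry no test.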

How the data were processed

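Libraries were made from total RNA with a kit (NEBNext Ultra), per the labels. STAR 2.7.9a, Trimmomatic 0.39, featureCounts, Subread 1.6.0, edgeR 3.40.0 and the build mm39 are named in the submitters' processing notes, which state no annotation or strand setting. The authors deposited 1 table of CPM, in which each column sums to 1000000. Its columns are headed 1 to 6 and were matched to the leading numbers of the sample titles. All values above 0 (100%) were whole reads within 0.01 of a read, so reads were recovered for the count tests. No 2 libraries agreed within sampling noise (chi-square per degree of freedom from 7.68 to 61.6).

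Genes averaging 1 CPM or more were tested with limma 3.58.1 in R 4.3.3 on log2(CPM + 1), with a trend and robust moderation, 2-sided, adjusted by Benjamini-Hochberg over 14873 genes at 0.05. Folds on this scale understate changes of low genes. SE and 95% intervals are limma's moderated ones. DESeq2 1.42.0 and edgeR's quasi-likelihood test (4.0.16) were alternatives, and the steps were tested on simulated reads. The members and lists were chosen with earlier results of these data known. Named beside the members are 9 set pathway genes and, in each list, the gene with the smallest p in each direction; Slc40a1 was added after its values were seen. Exon lengths are from GENCODE M21 and cover 93.8% of tested genes. Promoter sequences are from RefSeq, GRCm38.p6.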

Additional observations from a re-analysis of the deposited data

How the results depend on the processing

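Under 12 other settings and with each library left out in turn, 0 of the 10 genes were called. Over all genes the count of calls was 0 except with DESeq2 (3) and when libraries were left out (0 to 1, the 1 without Control 3, where 1402 genes had an unadjusted p under 0.05, against 213). The median log2 fold of the 10 genes ran from 0.0021 (without Naringin 1) to 0.13 when 1 library was left out, and from 0.06 to 0.10 under the other settings. Gsr, Pgd, Txnrd1 and Slc7a11 kept their direction under all of these, with folds of 0.22 to 0.51, 0.12 to 0.27, 0.02 to 0.12 and -0.29 to -0.07 when 1 library was left out. Upper-quartile scaling turned Keap1 to -0.0085, Gclm to -0.013, Nqo1 to -0.0058, G6pdx to -0.023 and Prdx1 to -0.021. Quantile normalization turned Keap1 to -0.0026, Gclm to -0.0051, G6pdx to -0.025 and Fth1 to 0.0025, and Prdx1 was at -0.025 with edgeR and -0.037 with DESeq2. With 1 library left out the folds ran from -0.044 to 0.13 for Nfe2l2, -0.0066 to 0.085 for Keap1, -0.10 to 0.28 for Gclc, -0.069 to 0.12 for Gclm, -0.094 to 0.33 for Srxn1 and -0.11 to 1.06 for Hmox1. Of the other named genes they ran from -0.32 to 0.43 for Nqo1, -0.13 to 0.18 for G6pdx, -0.10 to 0.35 for Me1, -0.12 to 0.23 for Prdx1, -0.16 to 0.13 for Fth1, -0.38 to 0.11 for Ftl1, -0.42 to 0.17 for Bach2, -0.14 to 0.047 for Rbx1, -0.24 to 0.014 for Akr7a5, -0.24 to 0.11 for Pgls, -0.28 to 0.065 for Sod1 and -0.64 to 1.08 for Slc40a1. The cause of these changes was not tested. Same-numbered libraries did not deviate together (r = -0.26, -0.02 and -0.27), and the replicate block left the median at 0.10 with 0 calls.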

Other observations

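Slc7a11 is also a target of ATF4, the factor of the amino acid and integrated stress response. Of the 14 genes listed for ATF4, 13 were tested, 7 with a log2 fold above 0 and 6 below, with a median of 0.0031; 0 passed with limma, edgeR or DESeq2, and 0 had an unadjusted p under 0.05 with any of the 3. Atf4 itself stood at 167, 185 and 203 CPM in Control and 179, 194 and 210 CPM with naringin. Trib3, a pseudokinase induced by ATF4, had the smallest p, with all naringin values (2.66 to 2.81 CPM) below the controls (3.37 to 4.08 CPM) and a log2 fold of -0.31 ± 0.18 (SE, n = 3 each). It was 1 of 13 with all naringin values below the controls, against 2.29% of all genes tested, and 0 of 13 had them all above, against 3.36%. Psat1, of serine synthesis, had the smallest p among the folds above 0 (log2 fold 0.09).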
